A study of Mus musculus with 10 samples.

Results

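The 10 genes followed here mark epidermal keratinocytes: *Krt5*, *Krt14*, *Krt15*, *Krt17*, *Krt1*, *Krt10*, *Dsp*, *Trp63*, *Sfn* and *Perp*. They were read from bulk RNA sequencing of B16F10 melanoma tumors. The members were chosen by symbol, and all 10 were found, each on 1 of the 55401 gene rows. The series holds 5 tumors grown from *Mir25* KO cells and 5 grown from cells with a non-targeting control guide (NTC). The B16F10 line comes from a mouse melanoma and is of melanocytic origin, and miR-25 is the microRNA made from *Mir25*. In both groups the cells were injected under the skin of the left flank of female C57BL/6J mice aged 9 to 12 weeks. Every mouse received Comb, which is GVAX (1000000 irradiated B16 cells that secrete GM-CSF, on days 1 and 4, in the other flank) plus αPD-1 antibody at 10 mg/kg on days 6, 9 and 12. Tumors were taken on day 15, so the groups differ in the injected cells and not in the treatment. The KO and NTC lines were made with CRISPR-Cas9, and the sources used here do not say whether a selected population or a single clone gave these tumors, nor how much skin was removed with each one.

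The epidermis is a layered epithelium. Cells of its basal layer divide, rest on the basement membrane and make the keratin pair K5 and K14. When they leave that layer they stop making this pair, switch to K1 and K10, and later build the cornified envelope, while desmosomes tie the cells of all layers together. Hair follicles and sebaceous glands grow from the same sheet and use keratins of their own. Accordingly the members were read as basal layer genes (*Krt5*, *Krt14*, *Krt15*, *Trp63*), differentiated layer genes (*Krt1*, *Krt10*) and genes of broader epithelial use (*Krt17*, *Dsp*, *Sfn*, *Perp*).

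On GRCm38 with GENCODE M21, 4 type I keratin genes lie on chromosome 11, all on the minus strand: *Krt10* (chr11:99385254-99389364), *Krt15* (chr11:100131758-100135928), *Krt14* (chr11:100203162-100207548) and *Krt17* (chr11:100256217-100261029). Both type II keratin genes lie on chromosome 15, also on the minus strand, *Krt5* at chr15:101707070-101712898 and *Krt1* at chr15:101845426-101850794. The remaining members are spread out: *Dsp* (chr13:38151294-38198577, plus strand), *Trp63* (chr16:25683763-25892102, plus strand), *Sfn* (chr4:133600556-133602168, minus strand) and *Perp* (chr10:18845020-18857073, plus strand). Counts are of reads over the exons of these genes. An antisense gene overlaps exons of *Krt5* (*Gm44323*), *Krt10* (*Gm11940*) and *Dsp* (*Gm10129*), and where the counting did not use strand, reads from such partners cannot be told apart.

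The bases just before the start sites of *Krt5* and *Krt10* are shown because these genes stand for the basal and the differentiated layer in the values that follow. The table of RefSeq promoters used here matched 5 of the 10 members (*Krt5*, *Krt10*, *Krt14*, *Dsp* and *Sfn*). The 60 bases before each start site on GRCm38.p6, both read on the minus strand, are given 5′ to 3′ with the letters ATAAA of a TATA-type box in capitals, from chr15:101712906-101712965 for *Krt5* and chr11:99389365-99389424 for *Krt10*.
Krt5: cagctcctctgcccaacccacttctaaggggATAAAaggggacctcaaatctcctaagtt
Krt10: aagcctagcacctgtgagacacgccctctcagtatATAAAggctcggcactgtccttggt

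The box starts 29 bases before the start site in *Krt5* and 25 bases before it in *Krt10*. The RefSeq start used for *Krt14* (chr11:100206030) lies 1518 bases inside the gene as placed above, so its window is not at the GENCODE start. Searched on the sense strand from 20 to 40 bases before the start, ATAAA occurs in 2 of the 5 member promoters and in 4.25% of all 32851 promoters of that table. The AP-1 letters TGANTCA, searched on both strands over 250 bases before to 50 after the start, occur in none of the 5 and in 7.81% of all promoters. The AP-2 letters GCCNNNGGC occur in the *Dsp* promoter alone among the 5, 75 bases before the start, against 16.6% of all promoters. These matches describe letters in a window and are not binding sites.

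Library totals on genes were 23243707 to 27006075 reads for *Mir25* KO and 11896643 to 28682130 for NTC tumors. The row of *Mir25* itself held 0 reads in all 10 tumors and so does not check the labels. Melanoma cell markers were high throughout, with a summed level between 11613 and 22245 CPM (reads per 1000000 reads on genes, with library sizes normalized by TMM). One library, NTC replicate 1, stood apart before any comparison. It has the lowest total, reads on 33193 genes against 22192 to 25435 elsewhere, and 42.9% of its reads outside genes against 17.5% to 28.2%. On autosomal genes without a read in the other 9 tumors it carried 0.956 reads per kb of exon, against 0.0350 to 0.103 for the corresponding genes of each other library. At that density the members would draw 33.9 reads in NTC replicate 1, and 53 were counted. Member results that touch this library are given with its counts.

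Reads on the members were concentrated in a pair of *Mir25* KO tumors. Of all reads counted on the 10 genes, 54.1% came from KO replicate 3 and 12.8% from KO replicate 4. Both had more than 3 reads on all 10 members, where 3 reads is the upper limit that a count of 0 allows. KO replicate 2 had more than 3 reads on 7 members, KO replicate 1 and NTC replicate 3 on 5 each, NTC replicate 1 on 4, and KO replicate 5 and NTC replicates 2, 4 and 5 on 3 each. The summed reads of the members were 142, 211, 1807, 428 and 136 in KO replicates 1 to 5 and 53, 125, 141, 142 and 157 in NTC replicates 1 to 5. KO replicates 3 and 4 lay above every other tumor, and outside them the sum never exceeded 211. In bulk samples, fewer cells of a type and less RNA per cell cannot be told apart.

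**Figure D1:**
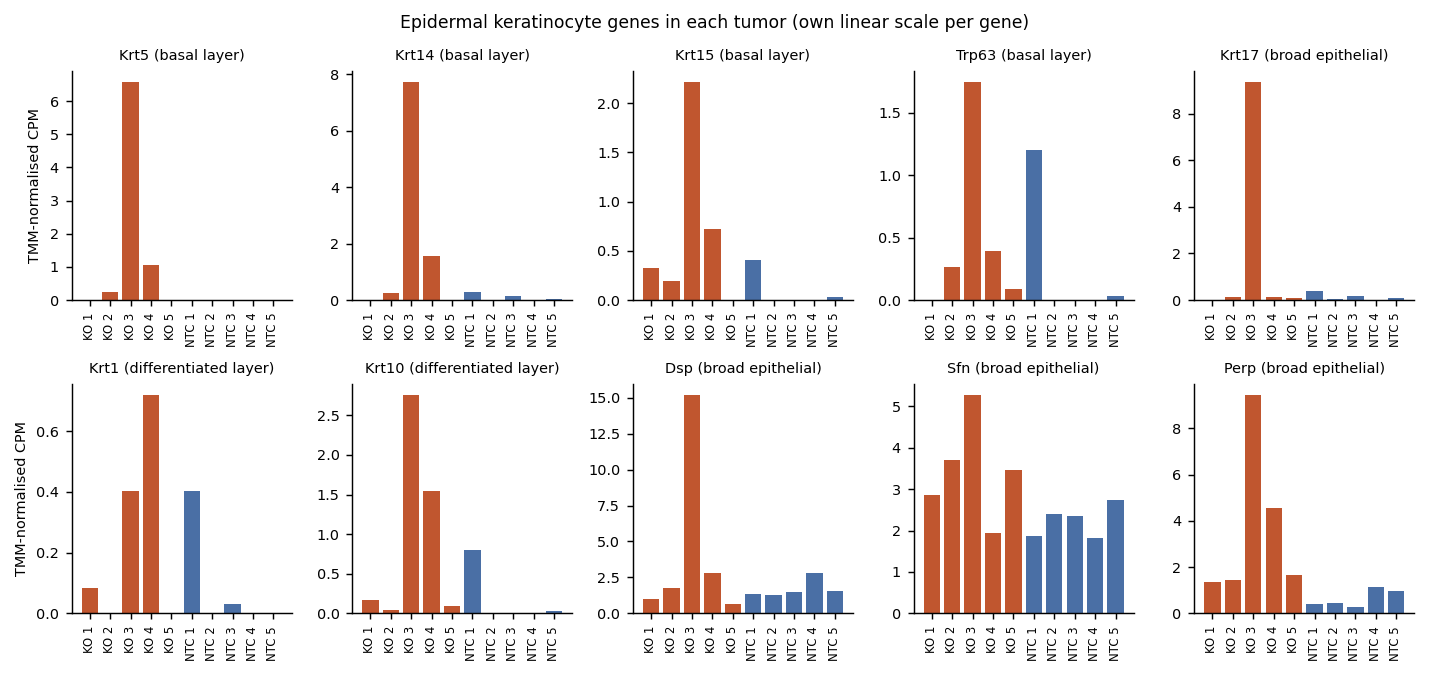
Level of each of the 10 genes in each tumor, as TMM-normalised CPM on a linear axis that starts at 0 and has its own scale per gene. Bars are single tumors, *Mir25* KO in orange and NTC in blue. KO 3 is the tallest bar for all members but *Krt1*, which is highest in KO 4 at 0.720 CPM.

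Among basal layer genes, *Krt5* was counted in *Mir25* KO tumors only. *Krt5* encodes the type II keratin of the basal layer. It had 0, 6, 196, 29 and 0 reads in KO replicates 1 to 5 and 0 reads in all 5 NTC tumors. A count of 0 was also seen in KO replicates 1 and 5, so the groups overlap. Pooled over tumors, the KO level was at least 72.5-fold higher than the NTC level, with the NTC group set at a floor of 3 reads in all, and 84.8% of the reads came from KO replicate 3. The KO mean was 1.57 ± 2.84 CPM (SD, n = 5), an SD larger than the mean.

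*Krt14*, the type I partner of *Krt5*, had 0, 7, 230, 43 and 0 reads in KO replicates 1 to 5 and 2, 0, 5, 0 and 1 reads in NTC replicates 1 to 5. KO replicates 3 and 4 were high, KO replicate 2 (0.266 CPM) was level with NTC replicate 1 (0.268 CPM), and the groups overlap. The levels were 1.91 ± 3.32 CPM in KO and 0.0920 ± 0.118 CPM in NTC tumors (SD, n = 5 each). Within the pair, *Krt5* made 46.0% of the reads in KO replicate 3 (95% exact binomial interval 41.2% to 50.9%) and 40.3% in KO replicate 4 (28.9% to 52.5%). These intervals overlap, so a difference in the *Krt5* share between the tumors was not detectable at this depth. Intervals on reads cover counting error only, since the reads carry no molecular identifiers.

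*Krt15*, a keratin of basal cells and of the hair follicle bulge, had 8, 5, 66, 20 and 0 reads in KO replicates 1 to 5 and 3, 0, 0, 0 and 1 reads in NTC replicates 1 to 5. *Trp63* encodes p63, the transcription factor that maintains stratified epithelia. It had 0, 7, 52, 11 and 2 reads in KO replicates 1 to 5 and 9, 0, 0, 0 and 1 reads in NTC replicates 1 to 5. Both genes follow the order of *Krt5* and *Krt14* in KO tumors, with replicate 3 first and replicate 4 second. The 9 reads of *Trp63* in NTC replicate 1 stand beside 8.02 reads that the background density of that library would give on its exons. *Trp63* in that tumor (1.20 CPM) was above KO replicate 4 (0.396 CPM), and the groups overlap for both genes. The summed level of the 4 basal genes was 4.67 ± 7.75 CPM in KO and 0.427 ± 0.812 CPM in NTC tumors (SD, n = 5 each). Without KO replicate 3 the KO mean was 1.27 CPM, and without NTC replicate 1 the NTC mean was 0.0654 CPM.

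The differentiated layer genes were counted in the same pair of tumors, in another proportion. *Krt10*, the type I keratin of the spinous layer, had 4, 1, 82, 43 and 2 reads in KO replicates 1 to 5 and 6, 0, 0, 0 and 1 reads in NTC replicates 1 to 5. *Krt1*, its type II partner, had 2, 0, 12, 20 and 0 reads in KO replicates 1 to 5 and 3, 0, 1, 0 and 0 reads in NTC replicates 1 to 5. *Krt1* was thus highest in KO replicate 4 and was the single member with more reads there than in KO replicate 3. The background of NTC replicate 1 would give 2.02 reads on *Krt10* and 4.22 on *Krt1*. The summed level was 1.16 ± 1.46 CPM in KO and 0.254 ± 0.532 CPM in NTC tumors (SD, n = 5 each), and the groups overlap. Without KO replicate 3 the KO mean was 0.660 CPM, and without NTC replicate 1 the NTC mean was 0.0165 CPM.

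Basal and differentiated genes were then compared within each tumor, as the share of reads on the 6 layer genes that fell on *Krt1* and *Krt10*. In KO replicate 3 the share was 14.7% (12.1% to 17.7%, 638 reads), and in KO replicate 4 it was 38.0% (30.5% to 45.8%, 166 reads). The intervals do not overlap, so the difference between these tumors exceeds counting error. Each is 1 tumor, and the spread between tumors of the same kind is unknown. KO replicate 2 had 25 basal reads and 1 differentiated read, a share of 3.85% with a wide interval (0.0973% to 19.6%). KO replicate 1 (14 reads) and NTC replicate 1 (23 reads) gave 42.9% (17.7% to 71.1%) and 39.1% (19.7% to 61.5%), and the other 5 tumors had at most 6 reads on these genes. In NTC replicate 1, 14 reads were basal and 9 differentiated, beside 13.5 and 6.24 reads at its background density. That density does not predict single genes or lists closely, and its part in these reads was not tested.

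**Figure D2:**
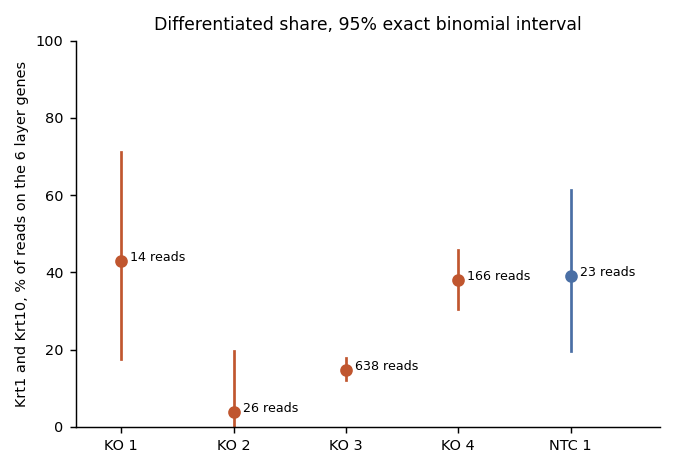
Share of the reads on the 6 layer genes (*Krt5*, *Krt14*, *Krt15*, *Trp63*, *Krt1*, *Krt10*) that fell on *Krt1* and *Krt10*, in percent, for the tumors with at least 10 such reads. Points are single tumors (KO in orange, NTC in blue) with exact binomial 95% intervals, and the intervals of KO 3 (14.7%) and KO 4 (38.0%) do not meet.

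Among the members, the excess of KO replicate 3 over KO replicate 4 was larger for basal layer than for differentiated layer genes. The ratio of CPM between the tumors was 6.32 for *Krt5* (95% counting interval 4.26 to 9.68), 5.00 for *Krt14* (3.6 to 7.09), 4.42 for *Trp63* (2.28 to 9.39) and 3.08 for *Krt15* (1.85 to 5.37). It was 1.78 for *Krt10* (1.22 to 2.64) and 0.561 for *Krt1* (0.250 to 1.20). The intervals of *Krt5* and *Krt14* lie above that of *Krt10*, while those of *Krt15* and *Trp63* overlap it. *Krt1* made 12.8% of the reads on the *Krt1* and *Krt10* pair in KO replicate 3 (6.77% to 21.2%) and 31.7% in KO replicate 4 (20.6% to 44.7%), and these intervals overlap slightly.

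Genes of the later layers varied in the same contrast. More than 3 reads fell on 15 of the 16 other spinous and granular layer genes in KO replicate 3, on 13 in KO replicate 4 and on 4 to 8 in each other tumor. In summed level the list was highest in NTC replicate 1, at 67.9 CPM against 30.7 CPM in KO replicate 3 and 22.5 CPM in KO replicate 4. Of its 507 reads there, where the background would give 42.1, 361 were on *Serpinb2*, a protease inhibitor also made outside the epidermis, 50 on *Sbsn* and 30 on *Dmkn*, and 0 were on *Krtdap*. Of the 12 with at least 20 reads in these tumors together, 6 had a ratio between KO replicates 3 and 4 whose interval lay above 1, 3 below 1 and 3 on both sides. The highest were *Klk7* (5.61, 2.34 to 16.3) and *Dsc1* (4.33, 2.23 to 9.22), inside the range of 3.08 to 6.32 of the basal members. *Lgals7*, a galectin of stratified epithelia (3.32, 2.45 to 4.58), and *Tgm1*, the transglutaminase that cross-links the envelope (1.79, 1.19 to 2.75), were higher in KO replicate 3 than in KO replicate 4. *Tgm1* was however highest in KO replicate 5 (3.86 CPM) and NTC replicate 1 (2.81 CPM), above KO replicate 3 (2.39 CPM), and *Sbsn* (0.534, 0.36 to 0.783) was higher in KO replicate 4 (2.77 against 1.48 CPM) but highest in NTC replicate 1 (6.69 CPM). *Krtdap*, a secreted protein of differentiating keratinocytes, gave a ratio of 0.947 between KO replicates 3 and 4 (0.676 to 1.33). *Cdsn*, which encodes the corneodesmosome protein corneodesmosin, gave 0.319 (0.165 to 0.584). Of the 15 cornified envelope genes, KO replicate 3 had 8 above 3 reads, KO replicate 4 had 4, and the other tumors had 0 to 2. NTC replicate 1 had 29 reads on the list, where its background would give 66.0. *Flg2*, a filaggrin-family protein, had 90 and 86 reads in these tumors (ratio 0.978, 0.720 to 1.33) and at most 2 in any other. *Hrnr*, which encodes hornerin of the same family, had 10 and 44 reads (0.212, 0.0953 to 0.428) and none in any other tumor. *Flg*, which encodes filaggrin, had few reads in both (4 and 2, 0.135 and 0.0720 CPM) and was highest in NTC replicate 1 (14 reads, 1.87 CPM). *Ivl*, which encodes the envelope protein involucrin, went the other way with 31 and 4 reads (7.24, 2.56 to 28.2). The later-layer genes therefore did not all favor the same tumor.

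*Krt17* was the member that differed most between the tumors with epidermal reads. It encodes a keratin of hair follicles and other skin appendages that is also made in wounded epidermis. It had 0, 3, 279, 4 and 2 reads in KO replicates 1 to 5 and 3, 1, 5, 0 and 2 reads in NTC replicates 1 to 5. KO replicate 3 alone was high and held 93.3% of all *Krt17* reads, and KO replicate 4 lay within the range of the NTC tumors. The ratio between KO replicates 3 and 4 was 65.2 (25.2 to 241), above the intervals of the other 9 members. Of the reads on *Krt14* and *Krt17*, *Krt17* took 54.8% in KO replicate 3 (50.4% to 59.2%) and 8.51% in KO replicate 4 (2.37% to 20.4%).

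Follicle keratins and *Tchh* followed *Krt17*. All 13 follicle keratins present in the files had more than 3 reads in KO replicate 3, with 1213 reads in all and a summed level of 40.8 CPM. KO replicate 4 had 21 reads on them, of which 20 were on *Krt79*, a keratin of the upper follicle, KO replicate 2 had 30, NTC replicate 1 had 21, and the other 6 tumors had 0 to 11. *Krt71*, an inner root sheath keratin, had 347 reads in KO replicate 3, 7 in KO replicate 2 and 0 in KO replicate 4, a ratio between replicates 3 and 4 of at least 108 with replicate 4 set at 3 reads. *Tchh* encodes trichohyalin of the inner root sheath and the hair medulla. It had 783 reads in KO replicate 3, 42 in KO replicate 2, 5 in KO replicate 4 and at most 17 in any other tumor. *Krt6a*, a keratin of the follicle and of wounded epidermis, had 78 reads in KO replicate 3 and at most 2 in any other tumor. Other genes of the wound and follicle lists did not all share the pattern. *Krt16*, a wound keratin, had 3 reads in KO replicate 3 and 8 in NTC replicate 1, and *S100a8*, also made by neutrophils, had 0.538 CPM in KO replicate 3 and 25.8 CPM in NTC replicate 1. Among follicle regulators and enzymes, *Shh* had 0 reads in KO replicate 3, *Foxn1* 4, *Msx2* 8, *Dlx3* 13 and *Padi3* 14, and NTC replicate 1 was above KO replicate 3 in CPM for all but *Dlx3*. KO replicate 3 thus carried both epidermal and follicle transcripts, and KO replicate 4 carried epidermal transcripts with hardly any follicle keratin but *Krt79*. Reads that aligned to several places were set aside by the counting (12.8% to 20.4% of reads), so keratins with close copies may be undercounted.

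**Figure D3:**
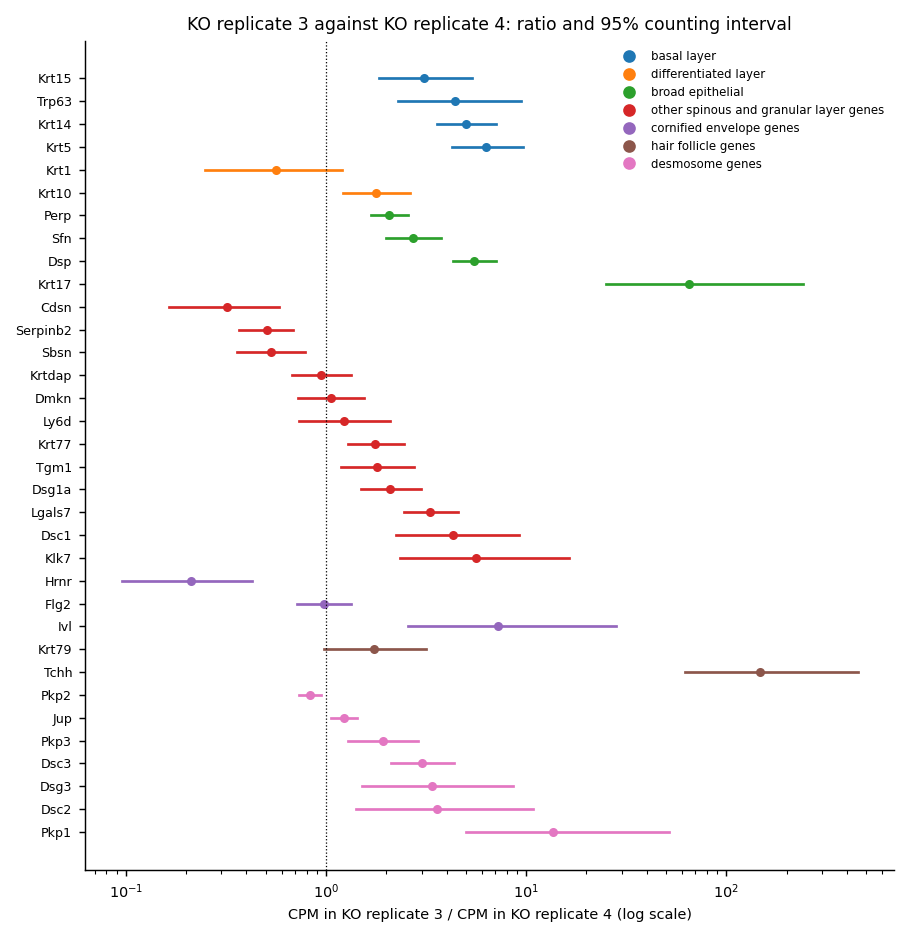
Ratio of CPM in KO replicate 3 to CPM in KO replicate 4, on a log axis, for the 10 members and for genes of the spinous and granular, cornified, follicle and desmosome lists with at least 20 reads in these tumors together and more than 3 in KO replicate 4. Points are ratios, lines are 95% counting intervals, colors are gene groups and the dotted line marks equal levels. *Krt17* (65.2) and *Tchh* (146) lie far to the right of the basal keratins, and *Krt1* (0.561) and *Hrnr* (0.212) lie left of the line.

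Desmosomal and p53-linked members were not confined to these tumors. *Dsp*, which encodes desmoplakin, the plaque protein that ties desmosomes to keratin filaments, had 25, 46, 452, 77 and 15 reads in KO replicates 1 to 5. In NTC replicates 1 to 5 it had 10, 38, 46, 69 and 44 reads. KO replicate 3 was highest by far, at 15.2 CPM against 0.666 to 2.80 CPM in the other 9. NTC replicate 4 (2.80 CPM) stood above the other NTC tumors, and the groups overlap. The levels were 4.28 ± 6.16 CPM in KO and 1.67 ± 0.641 CPM in NTC tumors (SD, n = 5 each).

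*Sfn* encodes 14-3-3σ, a p53 target that acts in cell cycle arrest and is abundant in stratified epithelia. It had 70, 98, 157, 54 and 78 reads in KO replicates 1 to 5 and 14, 73, 75, 45 and 79 reads in NTC replicates 1 to 5. All 10 tumors expressed it, between 1.83 and 5.28 CPM, and KO replicate 4 (1.94 CPM) was the lowest KO tumor although it was second for the basal keratins. The levels were 3.45 ± 1.23 CPM in KO and 2.24 ± 0.384 CPM in NTC tumors (SD, n = 5 each), and the groups overlap. KO replicate 3 held 21.1% of the *Sfn* reads, the smallest share it held of any member.

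*Perp* encodes a tetraspan membrane protein of desmosomes that is induced by p53 and p63. It had 33, 38, 281, 127 and 37 reads in KO replicates 1 to 5 and 3, 13, 9, 28 and 28 reads in NTC replicates 1 to 5. *Perp* was the single member whose groups did not overlap, from 1.35 to 9.45 CPM in KO and from 0.284 to 1.14 CPM in NTC tumors. The gap is narrow, as the lowest KO tumor (replicate 1, 33 reads) and the highest NTC tumor (replicate 4, 28 reads) gave a ratio of 1.19 with a 95% counting interval of 0.696 to 2.04, within counting error. Over all 15821 genes tested, 0.872% had every KO tumor above every NTC tumor. KO replicates 3 and 4 were again highest (9.45 and 4.57 CPM), but KO replicates 1, 2 and 5, which had few or no reads on the basal keratins, were also above every NTC tumor at 1.48 ± 0.150 CPM (SD, n = 3). The levels over all tumors were 3.69 ± 3.49 CPM in KO and 0.644 ± 0.383 CPM in NTC tumors (SD, n = 5 each).

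The comparison of *Mir25* KO with NTC tumors asked whether the members differ with the genotype of the injected cells. Only *Dsp*, *Sfn* and *Perp* passed edgeR's filter on low counts, and the 7 others were not tested. *Perp* passed it through its KO tumors, so its selection favored a higher value there. With p-values of edgeR's quasi-likelihood test adjusted by Benjamini-Hochberg over 15821 genes, none of the 3 was called at an adjusted p under 0.05 and an absolute log2 fold change above 1. The share called among all genes was 0.019%, 3 genes. The log2 fold changes were 2.49 for *Perp* (SE 0.66, adjusted p = 0.250 by edgeR), 1.35 for *Dsp* (SE 0.79, adjusted p = 0.645 by edgeR) and 0.62 for *Sfn* (SE 0.27, adjusted p = 0.554 by edgeR). At an unadjusted p under 0.05 edgeR gave *Perp* (0.00348) and *Sfn* (0.0472), and 8.85% of all genes did so. DESeq2 called *Perp* higher in KO tumors (log2 fold change 2.50, adjusted p = 0.0155) and neither of the others, against 0.152% of genes called higher and 0.607% called in either direction. The call on *Perp* therefore rests on the tool, with an adjusted p between 0.0155 and 0.508 over all alternatives. These p-values measure the spread between the tumors.

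Without a filter on low counts all 10 members entered the edgeR fit and none was called, with adjusted p between 0.466 and 0.521 for the 7 added genes. Their fitted changes were all positive, but for *Krt5* the NTC group is at 0 and the fitted value is no bound. Leaving out KO replicate 3 turned the *Dsp* change to -0.11 and brought *Perp* to 1.78 on the log2 scale. Leaving out KO replicates 3 and 4 together, a choice made after seeing the data, gave -0.55 for *Dsp*, 0.57 for *Sfn* and 1.17 for *Perp* (SE 0.50, adjusted p = 0.323 by edgeR). In the same fit without a filter, *Krt17* (-0.75), *Krt1* (-1.15), *Krt10* (-0.44) and *Trp63* (-0.72) turned negative, and *Krt14* went from 4.71 to 0.14 and *Krt15* from 3.85 to 1.38. *Krt5* went from 8.34 to 4.0, with NTC tumors at 0 in both fits, so neither value is a bound. None was called. *Perp* and *Sfn* kept a positive change in every alternative in which they were tested, and *Dsp* did not.

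**Figure D4:**
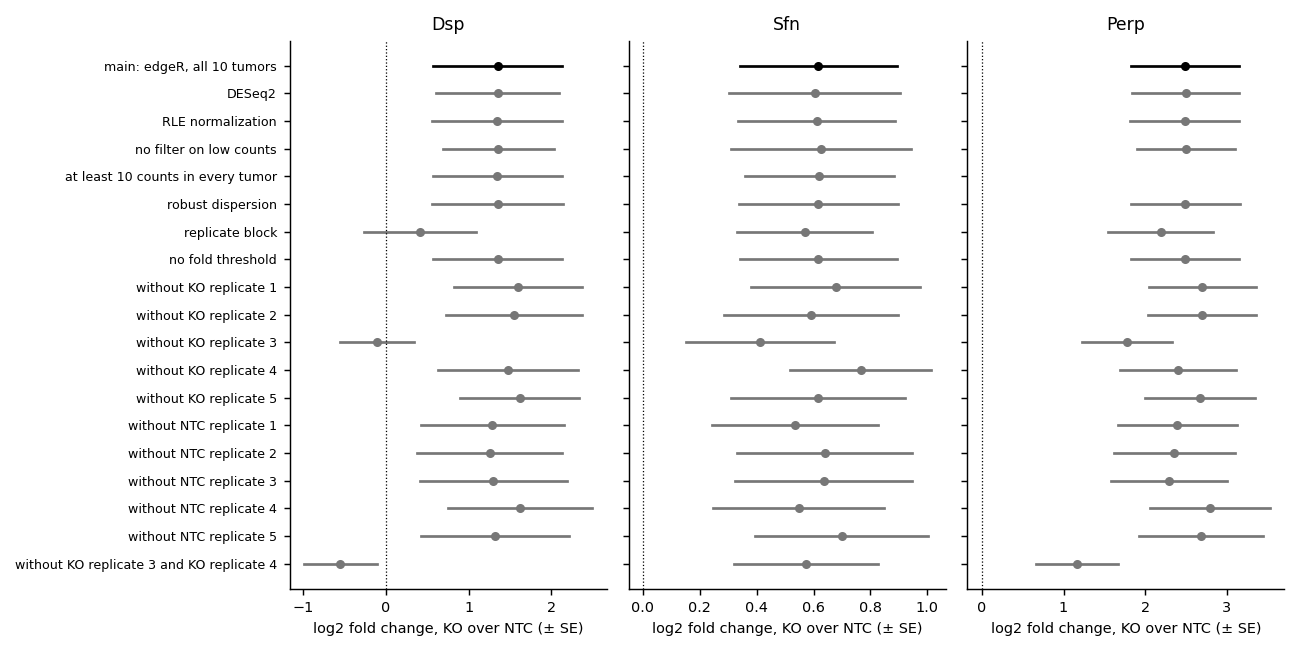
Log2 fold change of *Dsp*, *Sfn* and *Perp*, *Mir25* KO over NTC, with its SE, under each setting tried, the reported fit in black on top. *Dsp* drops below 0 without KO replicate 3 (-0.11), *Perp* stays above 1 in all settings in which it was tested, and *Perp* has no value under the filter that asks for at least 10 reads in every tumor.

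Other lists place the members among their neighbors. None of the tested genes was called by edgeR among 6 of 10 desmosome genes (*Dsp* and *Perp* included, median log2 fold change 1.07), 6 of 16 other spinous and granular layer genes (median 0.31), 8 of 10 other basal genes (median -0.10) or 12 of 12 p53 targets (median 0.23), against a median of 0.01 over all genes. The share of all genes at an unadjusted p under 0.05 by edgeR was 8.85%. At that limit edgeR gave 2 genes of the desmosome list, 1 spinous gene, 0 other basal genes and 2 p53 targets. The desmosome genes among them went opposite ways, *Perp* at 2.49 and *Pkp2*, which encodes the plaque protein plakophilin-2, at -0.91 (SE 0.20, adjusted p = 0.166 by edgeR). *Pkp2* ran from 12.5 to 21.4 CPM in KO and from 22.7 to 45.8 CPM in NTC tumors, without overlap, where 1.45% of all genes had every KO tumor below every NTC tumor. Among these lists DESeq2 called *Perp* and the spinous gene *Ly6d* (log2 fold change of *Ly6d* 2.46, adjusted p = 0.255 by edgeR), against 0.607% of all genes. *Ly6d* had 24, 31, 37, 28 and 10 reads in KO replicates 1 to 5 and 1, 2, 8, 0 and 11 in NTC replicates 1 to 5. Both genes passed the filter on low counts through their KO tumors, so their selection favored a higher value there. In the other basal list, each tumor had more than 3 reads on 7 to 10 of the 10 genes. That count cannot separate the tumors, since genes such as *Itga6*, *Dst* and *Cav1* were well counted in all of them. Of the 8 ratios formed in that list between KO replicates 3 and 4, 4 had an interval above 1, 1 below and 3 on both sides. Their median was 1.22, against 1.499 for the 12 ratios of the spinous and granular list. The larger excess of basal genes seen among the members was therefore not seen between these wider lists. The lowest of the 8 ratios was 0.666 for *Itgb4* (0.448 to 0.982). *Col17a1*, which encodes a hemidesmosome collagen, had the highest at 6.31 (2.98 to 15.3). Unlike *Krt5* it was highest in NTC replicate 1, with 22 reads (2.95 CPM) against 54 in KO replicate 3 (1.82 CPM). All 12 p53 targets were fitted higher in KO tumors, with *Trp53inp1* at 0.76 (adjusted p = 0.217 by edgeR) and *Ccng1* at 0.46 (adjusted p = 0.546 by edgeR). All 8 leukocyte markers were fitted higher as well, none called, with a median log2 fold change of 0.93 and a summed level of 915 to 5718 CPM in KO and 318 to 4620 CPM in NTC tumors. Whether that difference has a part in the *Perp* and p53 target values was not tested. Simple epithelial keratins had another order, as *Krt8* had 59 reads in KO replicate 2, 39 in KO replicate 3 and 2 in KO replicate 4. *Lgals7* had 17 to 99 reads in tumors other than KO replicate 3, where it had 192.

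**Figure D5:**
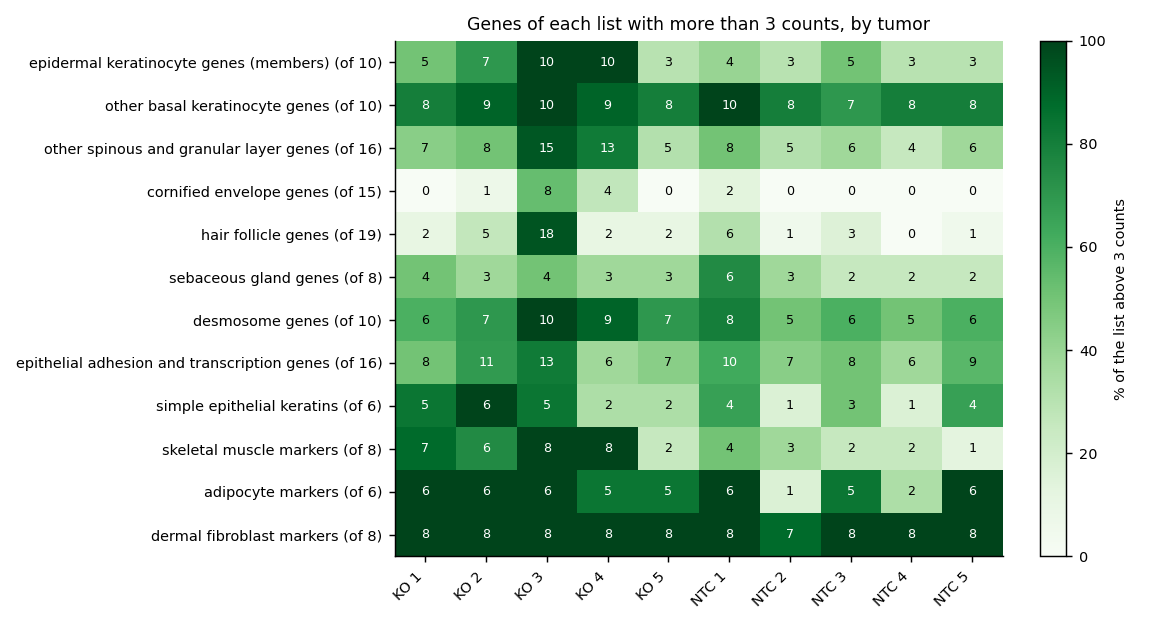
Number of genes of each list with more than 3 reads in each tumor, printed in the cells, with the color giving the percent of the list. The hair follicle row is dark in KO 3 alone (18 of 19 genes), the member row is full in KO 3 and KO 4 (10 of 10), and the fibroblast row is near full in every tumor.

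Markers of other tissues of the flank also differed between these tumors. The summed level of 8 skeletal muscle markers reached 36.5 CPM in KO replicate 3 and 192 CPM in KO replicate 4, while the other 8 tumors had 0.693 to 5.77 CPM. All 8 of these markers passed 3 reads in both tumors, and *Myh4*, a fast muscle myosin, had 447 and 1582 reads there and 0 to 46 elsewhere. Muscle thus had the opposite order to the basal keratins. Adipocyte markers summed to 86.5 CPM in KO replicate 3 and 12.4 CPM in KO replicate 4, the first above and the second inside the range of 0.488 to 74.2 CPM of the others. The 8 dermal fibroblast markers summed to 1238 and 931 CPM, inside the range of 53.1 to 6087 CPM of the other tumors, and the 8 leukocyte markers to 942 and 915 CPM, inside 318 to 5718 CPM. The part of these tissues in the values of the members was not tested.

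Per kb of exon, the order of the members differed between the tumors. In KO replicate 3, *Krt17* was highest at 6.05 CPM per kb, followed by *Perp* at 4.84, *Krt14* at 4.40, *Sfn* at 3.27, *Krt5* at 3.0, *Dsp* at 1.57, *Krt10* at 1.30 and *Krt15* at 1.26. In KO replicate 4, *Perp* led at 2.34 CPM per kb, followed by *Sfn* at 1.21, *Krt14* at 0.880, *Krt10* at 0.732, *Krt5* at 0.475 and *Krt15* at 0.407, and *Krt17* was ninth at 0.0928. *Trp63* and *Krt1* were low in both tumors, at most 0.208 CPM per kb. *Krt10* moved up past *Krt5*, *Dsp* and *Krt17* from replicate 3 to replicate 4. In NTC tumors, *Sfn* was highest at a mean of 1.39 CPM per kb, and *Perp* and *Dsp* followed at 0.330 and 0.173.

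Finally, the genes past the filter that are not members were ranked by how closely their log2 CPM followed the mean of *Krt5* and *Krt14* over the 10 tumors. No gene of 15818 had a Pearson r above 0.9. The 10 highest of these were *Fndc10* (r = 0.88), *Tmem106c* (0.87), *Eif3a* (0.86), *Ttn* (0.86), *Smc3* (0.85), *Acot1* (0.85), *Gm6210* (0.85), *Fra10ac1* (0.84), *Slk* (0.83) and *Zdhhc16* (0.83), and none belongs to a skin list. Few skin genes could be ranked, since the filter kept 0 of the 15 cornified and 1 of the 19 follicle genes, and the members *Dsp*, *Sfn* and *Perp* were set aside. Of the 10, 5 (*Eif3a*, *Smc3*, *Fra10ac1*, *Slk* and *Zdhhc16*) lie on chromosome 19, which holds 3.18% of the genes compared that have a position. Among the other members, *Dsp* (0.87, between *Tmem106c* and *Eif3a*), *Krt15* (0.85), *Krt17* (0.85) and *Krt10* (0.83) were closest, followed by *Perp* (0.80), *Trp63* (0.78) and *Krt1* (0.72). *Sfn* was farthest at 0.48, and at -0.19 without KO replicate 3. These correlations describe 10 tumors of which a pair carries most of the keratin reads, and the list was not stable, since 1 of the 10 genes stayed by Spearman's rho and 2 to 9 when single tumors were left out.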

How the data were processed

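Counts of 10 tumors were used, with groups and replicate numbers from the labels. The submitters' processing notes name FastQC, Trimmomatic, HISAT2, HTSeq and mm10, and the strand setting is not given in the sources used here. The authors deposited whole-number counts per gene without normalization, and rows that name no gene (35.3% to 64.1% of reads) were left out. Where the study used DESeq2, edgeR 4.0.16 in R 4.3.3 was the main test here (TMM, filterByExpr, quasi-likelihood, Benjamini-Hochberg adjustment, adjusted p under 0.05 and absolute log2 fold change above 1). Standard errors were derived from the fold change and F (absolute change over root F). CPM used TMM, with a prior count of 2 for logarithms. Background in NTC replicate 1 is its read density on genes without reads in the other 9 tumors.

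Alternatives were DESeq2 1.42.0, RLE, other filters and prior counts, the replicate number as a block, robust dispersion, no fold threshold, and each tumor left out. On counts simulated for 15821 genes, edgeR called 200 of 200 genes changed by a log2 fold change of 2 and 1 unchanged gene. The changed genes were drawn from well-counted genes, and every gene shared the same fixed dispersion. That result does not cover genes with few reads, such as most members, or the spread between these tumors. The members and lists were chosen with earlier results of these data known. All members are named. Of other lists some genes among the 4 highest in mean CPM are named, while *Krtdap*, *Cdsn*, *Krt79*, *Ly6d*, *Col17a1* and a few others were chosen after their values were seen. No gene is named from the sebaceous gland, epithelial adhesion and transcription, melanoma, leukocyte, adipocyte or dermal fibroblast lists. Tables used Python 3.11.15 with pandas 2.3.3 and scipy 1.17.1.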

Additional observations from a re-analysis of the deposited data

Results flagged for a closer look

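Within groups of 5 tumors, each member and each layer sum was searched for a tumor set far apart from the others of its group by Dixon's ratio, and 14 of the 25 comparisons with any spread held one (*Krt5* is 0 in all NTC tumors). Chance gives about 1 in 20 for normal values, a rate that does not carry over to sets that are mostly 0, and the sums contain their own members. The tumor was KO replicate 3 in 7 of them, NTC replicate 1 in 6 and NTC replicate 4 in 1. KO replicate 3 stood above the other KO tumors in *Krt5* (6.59 CPM), *Krt14* (7.74 CPM), *Krt17* (9.39 CPM), *Dsp* (15.2 CPM) and *Trp63* (1.75 CPM), and in the summed basal genes (18.3 CPM) and the summed broad epithelial genes (39.3 CPM).

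NTC replicate 1 had the highest NTC value in *Krt15* and *Krt1* (0.402 CPM each), but with 3 reads each, the limit that a count of 0 allows in this small library, it is not distinguished from tumors at 0. It was also highest in *Krt10* (0.803 CPM, 6 reads) and *Trp63* (1.20 CPM, 9 reads), and in the summed basal genes (1.87 CPM) and the summed differentiated genes (1.20 CPM). Its read density outside the genes used by the other tumors would give 1.69, 4.22, 2.02 and 8.02 reads on these 4 genes, a part that was not tested. *Dsp* in NTC replicate 4 (2.80 CPM, 69 reads) was also set apart, at a level equal to KO replicate 4 (2.77 CPM).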

How the results depend on the processing

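The number of genes called over the whole table was small and moved with the settings. It was 3 in the reported test, 96 with DESeq2, 6 with at least 10 reads in every tumor, 5 with robust dispersion, 5 without a fold threshold and 1 without KO replicates 3 and 4. Leaving out single tumors gave 1 to 17, and 17 was without NTC replicate 1. No member was called in any setting but DESeq2, which called 1, *Perp*. *Dsp* turned to -0.11 without KO replicate 3 and to -0.55 without KO replicates 3 and 4, its values with single tumors left out ran from -0.11 to 1.62, and 16 other settings left its direction. Basal sums over single tumors left out ran from 1.27 to 5.82 CPM in KO and from 0.0654 to 0.534 CPM in NTC tumors, and differentiated sums from 0.660 to 1.44 CPM and from 0.0165 to 0.318 CPM. Of the 10 genes most like *Krt5* and *Krt14*, 1 stayed by Spearman's rho and 2 to 9 with single tumors left out.

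With the replicate number as a block, 1 gene was called in all and no member, and the log2 fold change of *Perp* was 2.19 (adjusted p = 0.362 by edgeR), of *Dsp* 0.41 and of *Sfn* 0.57. Same-numbered tumors correlated between -0.29 and 0.63 in their deviations from the group means. KO replicates 1 and 4 matched the same-numbered NTC tumor best, and KO replicates 2, 3 and 5 did not. NTC replicate 1 was the best match of KO replicates 1, 2 and 5. Whether the numbers pair the tumors cannot be settled from these values.

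Depth limits what can be said of rare transcripts. Outside KO replicates 3 and 4, no basal keratin had more than 8 reads in any tumor, and differences at that level were not detectable.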
